A study of Mus musculus with 8 samples.

Results

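The genes described here are 35 genes of the skeletal muscle contractile apparatus and its calcium and energy supply, found by their names in the deposited count table. All 35 were among its 26709 genes, and 34 passed a filter on low counts. RNA was sequenced from 8 mammary tumours that EMT6 cells, an established breast cancer line of the mouse, had formed in Balb/c mice, the strain the line comes from; the samples are labelled wild type. The 4 control tumours came from mice given IgG, and the other 4 from mice given GrB-Fc-KS49. By its title this agent is a human fusion protein that includes granzyme B, the cell-killing protease of cytotoxic lymphocytes, with EMP2 as its target. Mice were treated 3 times in 10 days. The 2 groups are called IgG and GrB below. The labels do not say how old the mice were, how the tumours were dissected or whether each tumour is from its own animal, and p-values then measure only how these 8 tumours spread. Estimated counts per tumour summed to between 73.98 and 82.62 times 1000000. The labels call the cells epithelial, and Krt8, an epithelial keratin, was at 391 to 629 CPM in all 8 tumours.

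Skeletal muscle shortens when thick filaments of myosin pull on thin filaments of actin, after calcium released from the sarcoplasmic reticulum has bound troponin. Fast and slow fibres use different genes for the same parts: Myh1, Myh2 and Myh4 encode the heavy chains of fast fibres and Myh7 that of slow fibres, and each troponin subunit has a fast and a slow form. Mature fibres express these genes at very high levels, while carcinoma cells, lymphocytes and fibroblasts express most of them weakly or not at all. Muscle of the body wall and of the sheet beneath the skin lies close to the mammary fat pads of the mouse.

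Transcripts of muscle genes were present in control as well as treated tumours, and 34 of the 35 genes had counts in all 8 (Ckmt2 had 0 in IgG replicate 2). The summed level of the 35 genes was 493, 223, 240 and 396.5 CPM in IgG replicates 1 to 4 and 4349, 675, 739 and 223 CPM in GrB replicates 1 to 4 (CPM are counts in a library scaled to 1000000 counts, with edgeR's TMM factors). GrB replicate 1 was thus 5.88-fold above the next tumour, and GrB replicate 4 lay at the lowest control. Muscle genes made up 0.435% of the library of GrB replicate 1 and 0.0223% to 0.0739% of the other libraries. Much of the sum in the low tumours was a single gene, Eno3, and without it the sum was 351, 123.5, 73.7 and 254 CPM in IgG and 4097, 505, 628 and 74.4 CPM in GrB. In whole tumours, fewer cells of a type and less RNA per cell cannot be told apart.

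**Figure D1:**
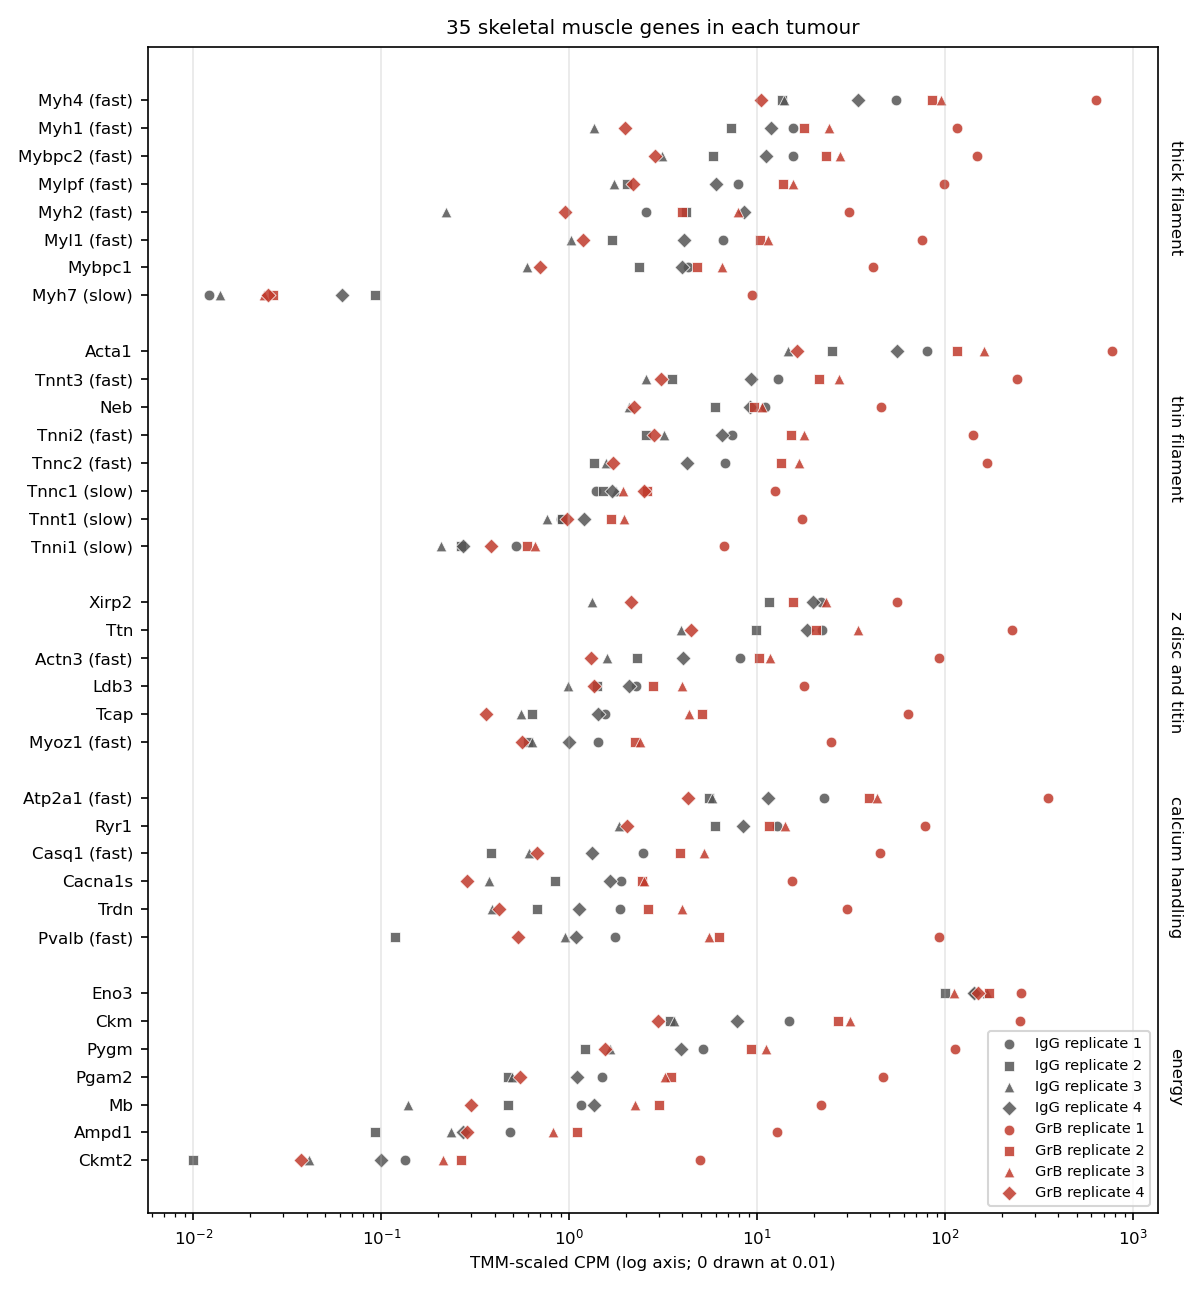
Level of each of the 35 genes (rows, grouped by role, with fast or slow fibre genes marked) in each of the 8 tumours, as TMM-scaled CPM on a log axis; grey points are IgG and red points GrB tumours, and the marker shape gives the replicate. GrB replicate 1 is the highest tumour for 35 of 35 genes, and GrB replicate 4 lies within the range of the IgG tumours for 26.

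Most members were high and low in similar tumours. GrB replicate 1 was the highest tumour for all 35 genes. GrB replicates 2 and 3 both exceeded the highest control for 28 genes. GrB replicate 4 lay within the range of the controls for 26 genes, below it for 8 and above it for 1. Among the controls, IgG replicates 1 and 4 were high and IgG replicates 2 and 3 low for most genes. The controls therefore differed from each other as well: relative to the IgG mean, the median member was at 1.72, 0.611, 0.449 and 1.25-fold in IgG replicates 1 to 4, and at 22.7, 2.63, 3.03 and 0.419-fold in GrB replicates 1 to 4.

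By edgeR's quasi-likelihood test no member differed between the groups at a Benjamini-Hochberg adjusted p under 0.05, and neither did any of the 19718 genes tested (0% called). The test covered 34 members, since Myh7 did not pass the filter on low counts. All 34 had a higher mean in GrB, with a median log2 fold change of 2.86 against 0.03 over all genes tested. At an unadjusted p under 0.05 there were 25 of the 34, beside 17.3% of all genes tested that were higher at that level, and the smallest adjusted p of a member was 0.0762, for Pvalb. Without GrB replicate 1 the median log2 fold change was 1.14, and 3 members remained at an unadjusted p under 0.05, Tnnt1, Tnnc1 and Ampd1, beside 12.3% of all genes. With limma-voom 0 of the 34 members were at that level, beside 14.1% of all genes that were higher, and with limma on log2(CPM + 1) also 0, beside 16% of all genes. DESeq2 called 17 members at an adjusted p under 0.05, beside 11.4% of all genes that were higher, and gave no p for 5. The count at an unadjusted p under 0.05 by edgeR was 6 without IgG replicate 2 (12.1% of all genes higher), 7 without IgG replicate 3 (12.4%), 16 without IgG replicate 4 (15.9%) and 30 without GrB replicate 4 (20.1%). The 4 GrB values all lay above the 4 IgG values for 1 member, Tnnc1, beside 10.2% of all genes tested. Without IgG replicate 1 this held for 3 members (11.6% of all genes), and without IgG replicate 4 for 2 (13.7%). Without GrB replicate 4, 28 members did not overlap, beside 15.9% of all genes, and 18 members passed an adjusted p under 0.05 by edgeR quasi-likelihood, beside 7.12% of all genes that were higher.

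**Figure D2:**
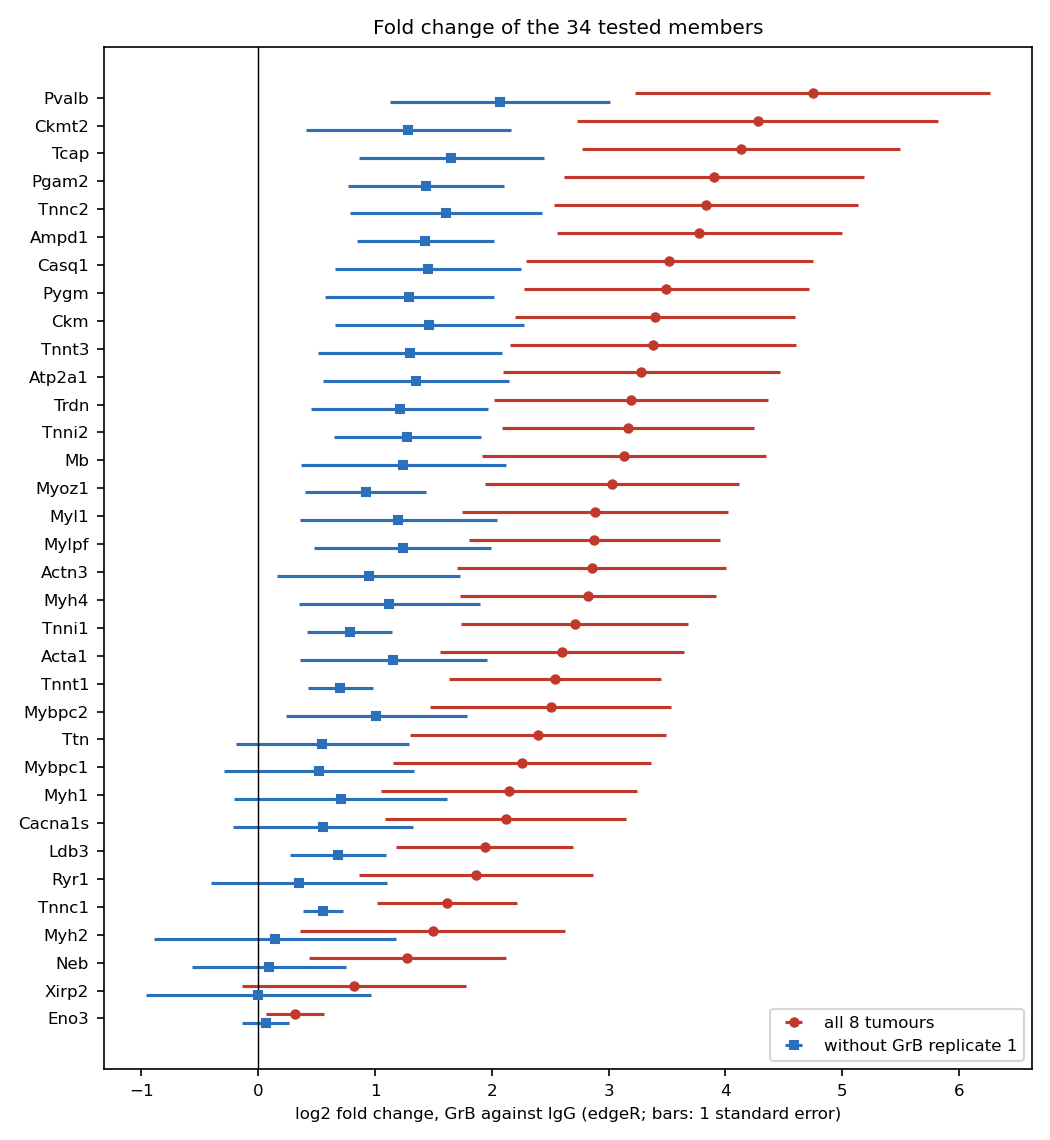
Log2 fold change of GrB against IgG for the 34 tested members with 1 standard error, from edgeR on all 8 tumours (red circles) and without GrB replicate 1 (blue squares). Every estimate is above 0 with all tumours, from 0.31 for Eno3 to 4.75 for Pvalb, and the median is 2.86 with all tumours and 1.14 without GrB replicate 1.

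Among thick filament genes, Myh4, the heavy chain of the fastest fibres (ENSMUSG00000057003, chromosome 11, 67128855 to 67151272, plus strand, GRCm39), was at 54.5, 13.6, 13.9 and 34.5 CPM in IgG replicates 1 to 4 and at 635, 85.3, 94.6 and 10.5 CPM in GrB replicates 1 to 4. GrB replicates 1 to 3 were above every control and replicate 4 was below every control. The means were 206 ± 288 against 29.1 ± 19.6 CPM (SD, n = 4 each), and the log2 fold change was 2.82 ± 1.10 (SE; adjusted p = 0.112 by edgeR's quasi-likelihood test). Mylpf and Myl1, light chains of fast fibres, were likewise highest in GrB replicates 1, 3 and 2 in turn, with 98.9 and 75.5 CPM in GrB replicate 1 and ranges of 1.74 to 7.91 and 1.02 to 6.56 CPM in controls. Mybpc2, the fast form of myosin-binding protein C, was at 147 CPM in GrB replicate 1 and 3.12 to 15.4 CPM in controls, and Mybpc1, the slow form, was at 41.45 CPM and 0.593 to 4.255 CPM. Of the 7 tested genes of this role, 4 were at an unadjusted p under 0.05, beside 17.3% of all genes that were higher, and 0 without GrB replicate 1, beside 12.3%.

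The myosin heavy chain genes were not high in the same proportions in every tumour. Myh2, the heavy chain of fast oxidative fibres (ENSMUSG00000033196, chromosome 11, 67061853 to 67088343), was at 2.55, 4.18, 0.221 and 8.47 CPM in IgG replicates 1 to 4 and at 30.7, 3.95, 7.86 and 0.945 CPM in GrB replicates 1 to 4. Here IgG replicate 4 was above every treated tumour but replicate 1, unlike for Myh4. On levels divided by transcript length (CPM per kilobase), Myh4 made up 75.4%, 54.45%, 89.85% and 63.2% of the 4 heavy chain genes in IgG replicates 1 to 4 and 80.55%, 79.95%, 74.9% and 78.1% in GrB replicates 1 to 4. Myh2 made up 16.5% and 15.3% in IgG replicates 2 and 4, and 1.41% to 6.98% in the other 6 tumours. Myh4 was the leading heavy chain in all 8 tumours, Myh1 was second with 8.65% to 28.7%, and the shares of the treated tumours lay within the range of the controls for Myh1, Myh2 and Myh4. Myh1, Myh2 and Myh4 are near-identical neighbours on chromosome 11, so their shares depend on how the counting divided shared reads, and IgG replicate 3 and GrB replicate 4 had few such reads, 16 and 76 counts of Myh2.

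**Figure D3:**
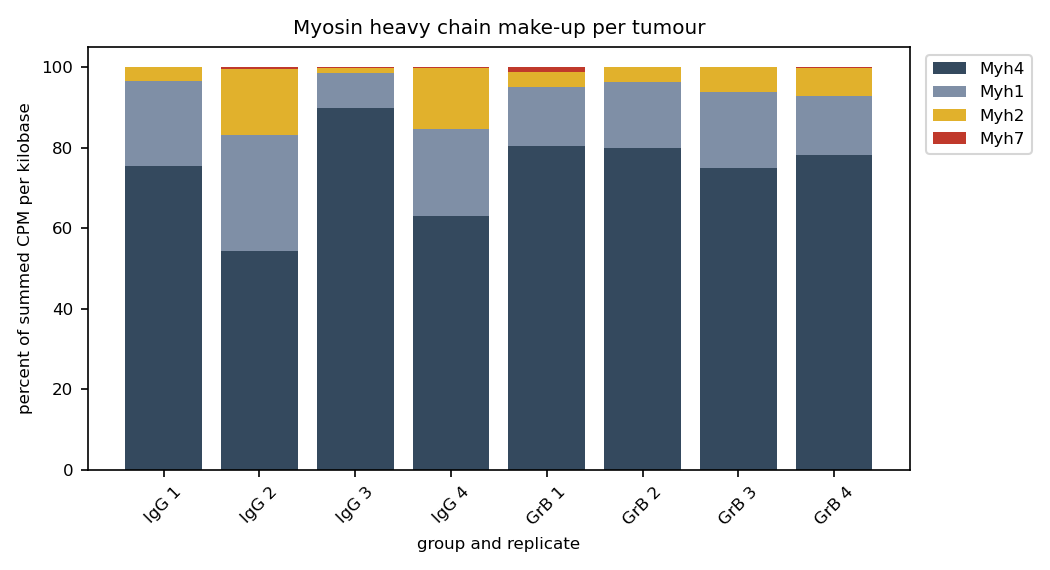
Share of the 4 myosin heavy chain genes in their summed CPM per kilobase (vertical axis, percent) in each tumour. Myh4 is the largest share in all 8 tumours, and the Myh2 share stands out in IgG replicates 2 and 4 at 16.5% and 15.3%.

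Myh7, the slow fibre heavy chain, which the heart also uses (ENSMUSG00000053093, chromosome 14, 55208141 to 55232083, minus strand), had 1, 7, 1 and 5 counts in IgG replicates 1 to 4 and 747, 2, 2 and 2 counts in GrB replicates 1 to 4. It was thus near the limit of detection in 7 tumours and at 9.35 CPM in GrB replicate 1. Even there it was 1.15% of the heavy chain level per kilobase. With no filter on low counts its log2 fold change was 5.60 ± 2.305 (SE; adjusted p = 0.1645 by edgeR's quasi-likelihood test). Myl2 and Myl3, light chains that slow fibres share with the heart, had 265 and 103 counts in GrB replicate 1 and at most 9 and 2 elsewhere. Myh6, a heavy chain of heart muscle, had 208 and at most 6. These 3 genes were named after their values were seen. Myh6 is a near-identical copy of Myh7, so reads of either gene may have been given to the other.

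Among thin filament genes, Acta1, skeletal muscle actin (ENSMUSG00000031972, chromosome 8, 124618508 to 124621490, minus strand), was at 80.1, 25.1, 14.6 and 55.3 CPM in IgG replicates 1 to 4 and at 769, 115, 161 and 16.4 CPM in GrB replicates 1 to 4. GrB replicate 4 was below 3 of the 4 controls. Acta1 had the highest level per kilobase of the members in GrB replicates 1 and 3, at 532 and 111 CPM per kilobase, and the second after Eno3 in the other 6 tumours. Its log2 fold change was 2.60 ± 1.04 (SE; edgeR quasi-likelihood, adjusted p = 0.120). Neb, which encodes nebulin, the ruler along the thin filament, differed less: it was at 10.9, 5.96, 2.07 and 9.11 CPM in IgG and at 45.6, 9.57, 10.7 and 2.20 CPM in GrB replicates 1 to 4, so that GrB replicates 2 and 3 lay within the controls.

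Of the fast troponins, Tnnc2, the calcium-binding subunit, was at 6.76, 1.36, 1.56 and 4.21 CPM in IgG replicates 1 to 4 and at 167, 13.4, 16.6 and 1.70 CPM in GrB replicates 1 to 4. Tnni2, the inhibitory subunit, was at 2.54 to 7.36 CPM in IgG and at 141, 15.1, 17.7 and 2.83 CPM in GrB replicates 1 to 4. Tnnt3, the tropomyosin-binding subunit, was at 2.55 to 12.8 CPM in IgG and at 241, 21.4, 27.4 and 3.07 CPM. All 3 subunits were highest in GrB replicate 1 and, in GrB replicate 4, within the range of the controls. Tnnc2 lies opposite Ube2c, a cell cycle gene at a mean of 94.75 CPM, and no source states whether strand was used in counting, without which reads of the 2 genes cannot be told apart where they overlap.

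The slow troponins were less variable outside GrB replicate 1. Tnnt1 was at 0.907, 0.909, 0.759 and 1.19 CPM in IgG replicates 1 to 4 and at 17.4, 1.66, 1.96 and 0.970 CPM in GrB replicates 1 to 4. Tnni1 was at 0.520, 0.264, 0.207 and 0.273 CPM and at 6.68, 0.597, 0.654 and 0.385 CPM. Both genes overlapped between the groups in GrB replicate 4. Tnnc1, the slow and cardiac calcium-binding subunit (ENSMUSG00000091898, chromosome 14, 30930269 to 30933686, plus strand), was at 1.39, 1.502, 1.78 and 1.69 CPM in IgG and at 12.5, 2.575, 1.93 and 2.498 CPM in GrB. It was the member whose groups did not overlap, by 1.93 in GrB replicate 3 against 1.78 in IgG replicate 3. Without GrB replicate 1 its log2 fold change was 0.55 ± 0.17 (SE), with an unadjusted p of 0.0133 and an adjusted p of 0.0894 by edgeR's quasi-likelihood test. Its level in GrB replicate 4 was near that in replicate 2, whereas all 14 fast genes were lower in replicate 4 than in replicate 2. Tnnc1 lies opposite Nisch, at a mean of 290 CPM, and what part of its count comes from Nisch was not tested.

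The 14 fast fibre members and the 4 slow fibre members were then set against each other in each tumour, as summed CPM per kilobase. The slow members were Myh7, Tnnt1, Tnni1 and Tnnc1. Mybpc2 was among the fast members, but Mybpc1, called the slow form above, was counted in neither set. Mybpc1 was at 10.6 CPM per kilobase in GrB replicate 1 and at 0.151 to 1.66 elsewhere, so the ratio depends on this choice. The fast sum was 80.3, 22.4, 19.9 and 56.0 in IgG replicates 1 to 4 and 1327, 140, 164 and 19.5 in GrB replicates 1 to 4. The slow sum was 3.26, 3.21, 3.39 and 3.74 in IgG and 41.5, 5.71, 5.155 and 4.75 in GrB. Fast genes thus spanned 8.39-fold over the 7 tumours other than GrB replicate 1, and slow genes 1.78-fold. Slow genes without Tnnc1 spanned 2.70-fold over the same tumours. The fast to slow ratio was 24.6, 6.97, 5.87 and 14.96 in IgG and 31.95, 24.5, 31.8 and 4.11 in GrB replicates 1 to 4, a mean of 13.1 ± 8.67 in IgG and 23.1 ± 13.1 in GrB (SD, n = 4 each). The ranges overlapped, with the lowest ratio of all in GrB replicate 4. Tnnc1 alone supplied 41.6% to 73.0% of the slow sum. Without it the slow sum was 1.34, 1.13, 0.921 and 1.41 in IgG and 24.25, 2.14, 2.48 and 1.28 in GrB, and the ratio was 19.8 to 60.1 in IgG and 54.7, 65.5, 65.95 and 15.2 in GrB replicates 1 to 4. In GrB replicate 1 fast and slow genes were both high, 29.7-fold and 12.2-fold above the IgG mean.

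**Figure D4:**
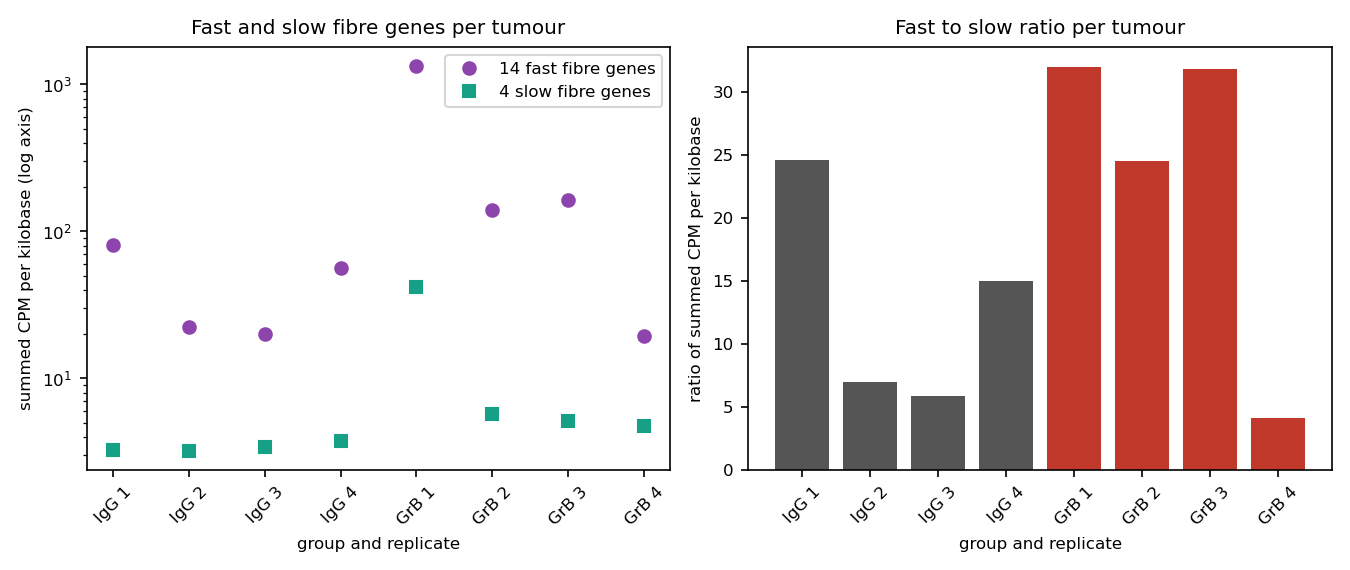
Left, summed CPM per kilobase of the 14 fast and the 4 slow fibre genes in each tumour on a log axis; right, their ratio per tumour (grey IgG, red GrB). The slow sum is 3.21 to 5.71 in 7 tumours and 41.5 in GrB replicate 1, and the ratio ranges from 4.11 to 31.95.

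At the Z disc, where thin filaments of neighbouring sarcomeres meet, Tcap, the cap of titin, was at 1.55, 0.633, 0.552 and 1.41 CPM in IgG replicates 1 to 4 and at 63.1, 5.10, 4.34 and 0.360 CPM in GrB replicates 1 to 4. Its level in GrB replicate 1 was 12.4-fold above the next tumour. Actn3, the alpha-actinin of fast fibres, was at 1.59 to 8.05 CPM in IgG and at 92.5, 10.2, 11.6 and 1.31 CPM in GrB. Myoz1 and Ldb3, which bind alpha-actinin, were at 24.7 and 17.8 CPM in GrB replicate 1 and at 0.606 to 1.41 and 0.979 to 2.27 CPM in IgG. Ttn, which encodes titin, the elastic filament of the sarcomere (ENSMUSG00000051747, chromosome 2, 76534324 to 76812891, minus strand), was at 22.0, 9.86, 3.92 and 18.4 CPM in IgG and at 226, 20.65, 34.3 and 4.45 CPM in GrB. GrB replicate 2 was within the controls for Ttn, and GrB replicate 3 above them.

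Xirp2, an actin-binding repeat protein of the muscle cell's attachment sites, followed the other members less closely than most. Over the 8 tumours its log2 CPM had a Pearson r of 0.819 with the mean standardised log2 CPM of the tested members, of which it is itself one, and r was lower only for Eno3 and Tnnc1 among the 34. It was at 21.9, 11.5, 1.32 and 19.7 CPM in IgG replicates 1 to 4 and at 55.5, 15.5, 23.2 and 2.14 CPM in GrB replicates 1 to 4. IgG replicates 1 and 4 were thus above GrB replicate 2. Its log2 fold change was 0.82 ± 0.96 (SE; edgeR quasi-likelihood, adjusted p = 0.562), and 0.00 without GrB replicate 1. Set against Ckm per kilobase, a pair chosen after their values were seen, Xirp2 stood at 0.343, 0.770, 0.0847 and 0.581 in IgG and at 0.0510, 0.132, 0.172 and 0.167 in GrB replicates 1 to 4. The ratio was highest in 3 of the controls and overlapped between the groups through IgG replicate 3.

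Genes of calcium handling had a median log2 fold change of 3.24, and 4 of the 6 were at an unadjusted p under 0.05, beside 17.3% of all genes that were higher. Without GrB replicate 1 the median was 1.28 and the count 0, beside 12.3% of all genes. Atp2a1, the calcium pump of fast fibres, was at 22.6, 5.51, 5.77 and 11.4 CPM in IgG replicates 1 to 4 and at 354, 39.2, 43.3 and 4.28 CPM in GrB replicates 1 to 4. Pvalb, the calcium buffer parvalbumin of fast fibres, had the highest log2 fold change of the 34, with 1.75, 0.119, 0.952 and 1.09 CPM in IgG and 93.1, 6.25, 5.57 and 0.534 CPM in GrB. GrB replicate 4 was below 3 controls for Pvalb and below all 4 for Atp2a1. The log2 fold change of Pvalb was 4.75 ± 1.52 (SE), and 2.07 ± 0.94 without GrB replicate 1. Casq1, the calcium store calsequestrin, and Trdn, which anchors it, were at 44.98 and 30.1 CPM in GrB replicate 1 and at 0.382 to 2.45 and 0.386 to 1.85 CPM in IgG. Ryr1, the calcium release channel, and Cacna1s, its voltage sensor, differed less, with log2 fold changes of 1.87 ± 1.001 and 2.12 ± 1.03 (SE), and neither reached an unadjusted p under 0.05.

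Genes of energy supply had a median log2 fold change of 3.49, and 6 of the 7 were at an unadjusted p under 0.05, beside 17.3% of all genes that were higher, the exception being Eno3. Without GrB replicate 1 the median was 1.29 and the count 1, beside 12.3% of all genes. Eno3, the muscle form of the glycolytic enzyme enolase (ENSMUSG00000060600, chromosome 11, 70548028 to 70553339, plus strand), was at 141.8, 99.3, 166 and 142.8 CPM in IgG replicates 1 to 4 and at 252, 170.4, 111 and 149 CPM in GrB replicates 1 to 4. It varied by less than the other members and in another order, with a Pearson r of 0.614 to the mean of the tested members, and GrB replicate 3 lay below 3 of the controls. Ckm, the creatine kinase of muscle, was at 14.7, 3.43, 3.59 and 7.78 CPM in IgG and at 250, 26.9, 31.1 and 2.95 CPM in GrB. Ckmt2, its mitochondrial partner, had 11, 0, 3 and 8 counts in IgG and 398, 20, 18 and 3 counts in GrB. Pygm, glycogen phosphorylase, and Pgam2, a glycolytic mutase, were at 113 and 46.5 CPM in GrB replicate 1, at 9.30 and 3.49 CPM in replicate 2 and at 1.21 to 5.16 and 0.474 to 1.499 CPM in IgG. Ampd1, the AMP deaminase of muscle, was at 12.8, 1.10, 0.820 and 0.286 CPM in GrB and at 0.0923 to 0.483 CPM in IgG, and Mb, myoglobin, at 21.85, 2.999, 2.25 and 0.298 CPM in GrB and 0.138 to 1.35 CPM in IgG.

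The fold change of a member went with the length of its transcript. Across the 34 tested members Spearman's rho between log2 fold change and transcript length was -0.54, and across 19341 tested genes with a length it was -0.31; genes are not independent replicates, and the values share the 8 libraries. The 9 members with transcripts of 5000 bases or more had a median log2 fold change of 1.94, the 8 of 2000 to 5000 bases 3.24 and the 17 shorter ones 3.13. The part of this relation in the differences between members was not tested. Across the 35 members the log2 levels per kilobase of GrB replicates 2 and 3 correlated at a Pearson r of 0.992, of GrB replicate 3 and IgG replicate 1 at 0.986, and of GrB replicate 4 and IgG replicate 3 at 0.983. GrB replicate 1 correlated at 0.765 to 0.934 with the other tumours. The pairs share a gene set and each tumour enters 7 pairs.

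Promoters of the members are described because most of these genes were high in the same tumours. The sequences are RefSeq's on GRCm38.p6, which is not the build of the counts, and cover the 250 bases before the annotated start. A window was at hand for 27 of the 35 members. The E-box CAGCTG, a site type bound by MyoD family factors, occurred in 14 of the 27 (51.9%) against 14.7% of 27025 genes with a window. The motif of MEF2 occurred in 6 (22.2%) against 3.42%, and the CArG box, the motif of serum response factor, in 3 (11.1%) against 1.62%. Both strands were searched, CAGCTG reads the same on both, and a match is a description of letters, not of a bound site. The following 4 windows are shown as examples of windows that hold the E-box, from a thin filament actin, the leading heavy chain, an energy enzyme and a slow troponin. They were chosen for a match, and 13 of the 27 members with a window have no CAGCTG in it. They run 5′ to 3′ on the gene's strand, with matches of the 3 motifs in capitals.
Acta1, chr8:123894776-123895025, minus strand: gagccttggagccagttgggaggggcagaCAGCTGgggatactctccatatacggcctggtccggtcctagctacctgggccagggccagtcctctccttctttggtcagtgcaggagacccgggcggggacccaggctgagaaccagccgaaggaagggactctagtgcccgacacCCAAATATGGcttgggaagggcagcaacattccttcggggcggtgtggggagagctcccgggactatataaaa
Myh4, chr11:67237562-67237811, plus strand: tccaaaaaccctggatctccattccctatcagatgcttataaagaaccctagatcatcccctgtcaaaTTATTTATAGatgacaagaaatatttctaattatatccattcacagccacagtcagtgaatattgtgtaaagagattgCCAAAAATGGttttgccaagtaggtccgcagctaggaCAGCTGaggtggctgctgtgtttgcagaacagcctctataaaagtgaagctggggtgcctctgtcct
Pgam2, chr11:5803797-5804046, minus strand: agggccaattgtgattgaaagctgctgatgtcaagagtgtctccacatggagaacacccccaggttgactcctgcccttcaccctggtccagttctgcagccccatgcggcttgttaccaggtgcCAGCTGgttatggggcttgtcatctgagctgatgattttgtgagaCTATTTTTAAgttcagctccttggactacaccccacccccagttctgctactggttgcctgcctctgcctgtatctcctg
Tnni1, chr1:135799171-135799420, plus strand: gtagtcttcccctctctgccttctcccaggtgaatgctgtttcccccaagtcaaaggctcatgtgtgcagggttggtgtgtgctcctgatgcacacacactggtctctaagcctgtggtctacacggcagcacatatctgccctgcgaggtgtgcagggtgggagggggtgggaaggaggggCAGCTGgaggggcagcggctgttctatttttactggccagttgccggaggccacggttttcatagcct

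The Acta1 window holds the E-box and a CArG box, the Myh4 window all 3 motifs, the Pgam2 window an E-box and a MEF2 match, and the Tnni1 window, the first of 2 annotated starts, an E-box. Acta1, Myh4 and Pgam2 were 4.79, 6.71 and 13.3-fold higher in GrB replicate 1 than in the next tumour and Tnni1 10.2-fold. Members whose windows hold none of the 3 motifs were higher there too. Myh7, Tnnc2, Tnnt1 and Ryr1 stood 101, 10.0, 8.87 and 5.52-fold above the next tumour, and Mybpc2, Tnnc1, Myh2 and Eno3 5.37, 4.84, 3.62 and 1.48-fold. A relation of the motifs to these folds was not tested.

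A second list of 52 other skeletal muscle genes (sarcomere, triad, mitochondrial and muscle ligase genes) was also highest in GrB replicate 1, with a sum of 954 CPM there, 349, 421 and 282 CPM in GrB replicates 2 to 4 and 250 to 317 CPM in IgG. All 48 tested genes of it had a higher mean in GrB, with a median log2 fold change of 2.10, and 0.70 without GrB replicate 1. At an unadjusted p under 0.05 there were 18 of the 48, beside 17.3% of all genes that were higher, and 3 of the 48 without that tumour, beside 12.3%. Tpm2, a tropomyosin that smooth muscle and fibroblasts also express, was at 146 to 168 CPM in IgG and at 316, 162, 222 and 178 CPM in GrB replicates 1 to 4, and Pfkm, a phosphofructokinase, at 40.65 to 47.3 CPM and at 101, 50.95, 51.6 and 45.3 CPM. Fbxo32, a ubiquitin ligase of muscle wasting, Hspb6, a small heat shock protein, and Tmem38a, a reticulum potassium channel, had log2 fold changes of 0.27, 0.43 and 0.48. Jph2, a junctophilin, was at 5.997 to 12.6 CPM in IgG and at 30.3, 18.1, 8.38 and 10.3 CPM in GrB. Cmya5 and Klhl41, proteins of the sarcomere, were at 30.9 and 24.8 CPM in GrB replicate 1 and at 0.897 to 5.69 and 0.772 to 4.86 CPM in IgG.

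Apart from Megf10, genes of muscle progenitors and regeneration were low, with means over the 8 tumours of at most 2.54 CPM. Of 14 listed, 8 were tested, 6 higher and 2 lower in GrB, beside 53.2% of all genes tested that were higher. At an unadjusted p under 0.05 by edgeR there was 1, beside 17.3% of all genes that were higher at that level. That gene was Myh8, the perinatal heavy chain, at 0.737, 0.224, 0.0276 and 0.260 CPM in IgG replicates 1 to 4 and at 13.4, 1.42, 0.951 and 0.0497 CPM in GrB replicates 1 to 4. It too was highest in GrB replicates 1 to 3. Chrna1, an acetylcholine receptor subunit, was at 8.80 CPM in GrB replicate 1 and at 1.23 to 2.18 CPM elsewhere. Megf10, a receptor of muscle stem cells, went another way, with 15.9 to 35.8 CPM in IgG and 5.06, 5.67, 43.7 and 26.9 CPM in GrB. Pax7, the factor that marks muscle stem cells and was looked at after the values were seen, had 0 to 6 counts per tumour. The tested genes had a median log2 difference from the IgG mean of 3.27 in GrB replicate 1 and -1.77 to 1.37 elsewhere. Myh3, Myog and Myf6 had 569, 443 and 294 counts in GrB replicate 1 and at most 43, 169 and 68 elsewhere. Mymk, Myod1 and Chrng had 137, 122 and 118 there and at most 15, 30 and 15 elsewhere. Musk and Megf10 were not highest there. Of these, all but Megf10 were named after their values were seen.

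Marker lists of other tissues were set beside the muscle genes. Of these, the sums of red cell, T cell and cardiac genes were also highest in GrB replicate 1, and those of adipocyte, skin and smooth muscle genes in other tumours. Haemoglobin gene Hbb-bs was at 192, 105, 98.0 and 269 CPM in IgG replicates 1 to 4 and at 364, 309, 291 and 76.3 CPM in GrB replicates 1 to 4, so the 3 lowest tumours were those with the lowest muscle sums. Summed over the 7 erythroid genes in the table the range was 202 to 573 CPM in IgG and 165 to 828 CPM in GrB. Adipocyte genes were highest in GrB replicate 3, with Fabp4, a fatty acid carrier, at 96.15, 45.65, 283 and 52.55 CPM in GrB and 39.1 to 56.6 CPM in IgG, and the 14 genes summed to 76.0 to 154 CPM in IgG and 120.2 to 736 CPM in GrB. Skin genes were highest in GrB replicate 2, with Krt10, a keratin of the epidermis, at 723 CPM there and at 0.230 to 1.97 CPM in the other 7, and the 12 genes summed to 2143 CPM there against 6.74 to 16.9 CPM. The 12 T cell genes summed to 86.3, 52.0, 15.9 and 32.0 CPM in GrB and 12.4 to 19.3 CPM in IgG, so GrB replicate 3 lay within the controls. Smooth muscle and pericyte genes, which share contractile function, summed to 1184 to 1483 CPM in IgG and to 929, 1011, 1701 and 1383 CPM in GrB. This sum was lowest in GrB replicate 1, where Acta2 alone supplied 598 CPM. By the median log2 difference from the IgG mean, GrB replicate 1 was not lowest, at -0.14 against -0.45 in IgG replicate 3 and -0.20 in GrB replicate 4. Synpo2, Rgs5 and Lmod1 of this list were highest in GrB replicate 1. Of the cardiac list, Ankrd1 and Tnnt2 were at 98.5 to 220 and 25.5 to 51.5 CPM in all tumours. Myl4, next by mean level, was at 12.8 CPM in GrB replicate 1 and at 0.386 to 2.26 CPM elsewhere. Actc1, Tnni3 and Nppb had 317, 274 and 217 counts in GrB replicate 1 and at most 39, 99 and 87 elsewhere. Nppa and Ryr2, defining genes of heart muscle, had at most 5 and 9 counts. Genes of this list with counts were highest in GrB replicate 1, except Tnnt2 and Nppa, which were highest in GrB replicate 4. The part of any of these tissues in the muscle values was not tested, and adipocyte, skin and T cell levels in GrB replicate 4, where muscle was low, were 120.2, 8.79 and 32.0 CPM.

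**Figure D5:**
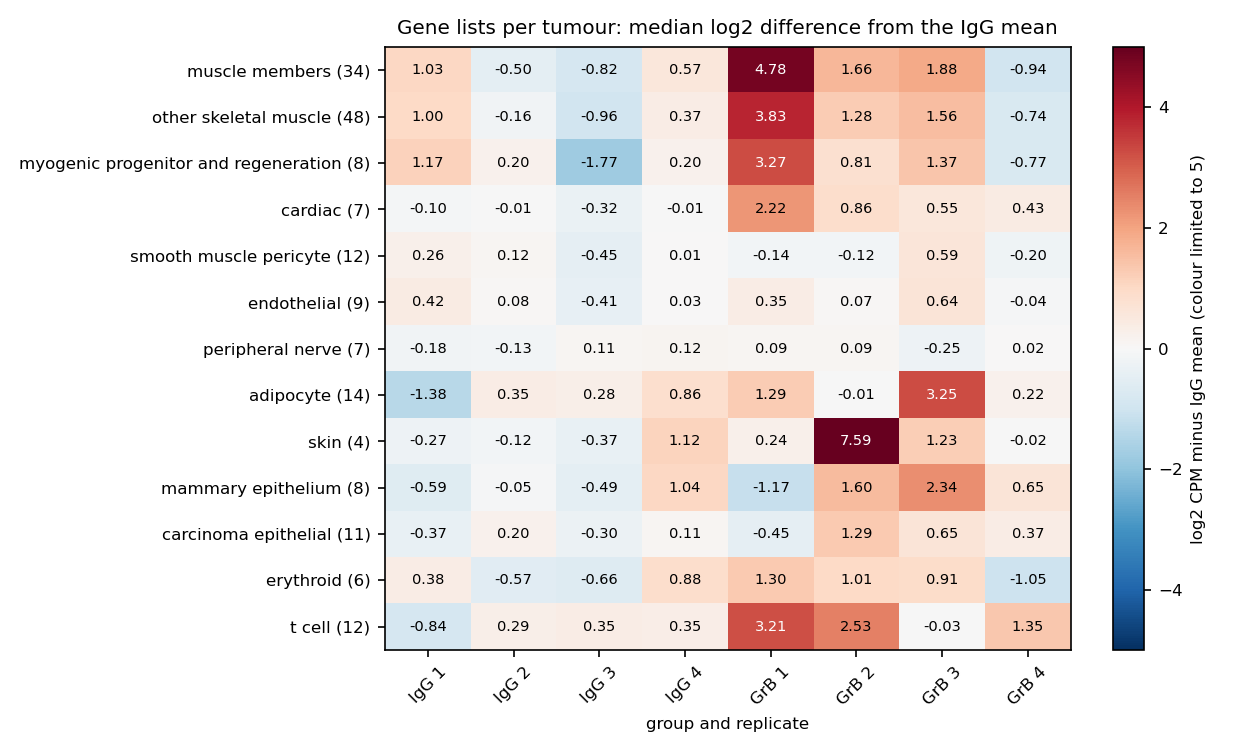
Median over the tested genes of each list (number in brackets) of the log2 CPM minus the mean of the 4 IgG tumours, by tumour. Muscle members stand at 4.78, 1.66, 1.88 and -0.94 in GrB replicates 1 to 4, while adipocyte genes peak in replicate 3 at 3.25 and skin genes in replicate 2 at 7.59.

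All 14812 genes with a mean of at least 1 CPM were ranked by how closely their log2 CPM followed the mean of the tested members over the 8 tumours. This ranking is a description, and members share in the mean they are compared with. Of the first 50, 21 were members, 11 came from the second muscle list and 16 from no list, all with a Pearson r of at least 0.967. The 10 leading genes from no list were Klhl31, Mustn1, A930016O22Rik, Sh3bgr, Smyd1, Hjv, Eef1a2, Mylf-ps, Atp1b2 and Mef2c, with r of 0.981 to 0.9965 and of 0.939 to 0.989 without GrB replicate 1. Smyd1, a methyltransferase of striated muscle, was at 0.179 to 1.14 CPM in IgG and at 8.997, 1.54, 1.05 and 0.298 CPM in GrB replicates 1 to 4. A930016O22Rik is a noncoding RNA that overlaps Ckm on the opposite strand, and whether reads of the overlap were assigned by strand was not tested. Mylf-ps is annotated as a processed pseudogene, and whether its reads came from another gene was not tested. Mef2c, a transcription factor of muscle that lymphoid and endothelial cells also express, varied less, with 12.7 to 17.1 CPM in IgG and 34.6, 19.1, 19.4 and 14.4 CPM in GrB.

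One library per group, IgG replicate 1 and GrB replicate 3, has a U at the end of its title, which the labels do not explain. IgG replicate 1 had the highest muscle sum of the controls and GrB replicate 3 the second of the treated tumours. With both left out the median log2 fold change of the members was 3.56, and 20 of 33 were at an unadjusted p under 0.05 (13.9% of all genes higher). In a fit with the U as covariate the median was 2.95 and the count 16 of 34 (17.5% of all genes higher). A single library with the suffix in each group allows no test within it.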

How the data were processed

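RNA was measured in 8 mouse tumours, 4 IgG and 4 GrB. Per the labels' protocols, mRNA was enriched and libraries were made with a KAPA stranded kit, random primers and dUTP in the second strand. The submitters' processing notes name bcl2fastq 2.19.1.403, STAR and GRCm39; how genes were quantified, on which annotation and with or without strand is not stated in any source here. Estimated counts were deposited by the authors (46.0% to 47.8% of values per library whole within 1e-06), for genes with a total of at least 10, and CPM were deposited by the authors as counts scaled to a library total of 1000000; a count of 0 is listed there as the CPM of 0.0001 count.

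Estimated counts were rounded, filtered with filterByExpr (19718 genes left), scaled by TMM and tested with edgeR 4.0.16 (robust quasi-likelihood F test, R 4.3.3), GrB against IgG, with Benjamini-Hochberg adjustment over all genes tested. Log2 fold changes have standard errors from the same fit, computed as the fold change divided by the root of F. On simulated counts with the real means and library sizes the test found 60% of 50 changes of 2-fold and 88% of 50 of 4-fold, over 19482 genes, and 5.88% of its calls were false. Each gene was drawn independently around a mean shared by all tumours of a group, so an outlying tumour was not simulated. The simulated shares therefore do not hold for the members, of which 0 were called at a median log2 fold change of 2.86. Levels per kilobase used the longest principal transcript of GENCODE vM21 (GRCm38), found for 35 members; this is a length and no coordinate. Gene coordinates are those of the deposited table, 1-based, with its stop reduced by 1. Alternatives were DESeq2 1.42.0, limma 3.58.1 (voom, and log2(CPM + 1) on the deposited CPM), other scaling and filters, and each library left out. The members and lists were chosen with earlier results of these data known. Members could all be named. Other genes were named by mean level, 8 from the second muscle list and 3 from each other list, and by likeness to the members. Some genes were named outside this rule, among them Nppa, Ryr2, Actc1, Tnni3 and Nppb of the cardiac list. Of all listed genes 7 were not in the table. Values of the lists of peripheral nerve, endothelial, mammary and carcinoma epithelial genes appear in the plot of gene lists by tumour. Their summed levels were 20.85 to 28.3, 176 to 324.5, 8.23 to 23.1 and 483 to 565 CPM in IgG and 20.6 to 40.4, 238 to 347, 12.7 to 499 and 477 to 828 CPM in GrB.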

Additional observations from a re-analysis of the deposited data

Results flagged for a closer look

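In groups of 4 tumours, a value was marked when its gap to the nearest tumour, divided by the range of the group, exceeded Dixon's 95% critical value. Chance alone passes this value in about 1 of 20 groups of 4 if values are normally spread. The rule was used on CPM without a log, so that rate need not hold here. The rule marked GrB replicate 1 as standing apart from the other 3 GrB tumours for 29 of the 35 members. The share of all genes so marked is not given here, so the count is not particular to muscle genes by itself. Of 70 groups of members tested no other tumour was marked. The CPM of that tumour were, among thick filament genes, Myh4 634.5, Myh7 9.347, Mylpf 98.89, Myl1 75.5, Mybpc1 41.45 and Mybpc2 147.2. Among thin filament genes they were Tnnt3 241.4, Tnni2 140.5, Tnnc2 166.8, Tnnt1 17.39, Tnni1 6.682 and Tnnc1 12.46. Z disc genes and titin had CPM of Actn3 92.48, Ttn 226.1, Myoz1 24.66, Tcap 63.05 and Ldb3 17.78. In calcium handling the CPM were Pvalb 93.12, Atp2a1 354.2, Casq1 44.98, Ryr1 77.95, Cacna1s 15.35 and Trdn 30.06. In energy supply they were Ckm 249.9, Mb 21.85, Ckmt2 4.98, Pygm 112.6, Pgam2 46.48 and Ampd1 12.76. The summed level of the members was marked as well, at 4349 CPM. The members share 1 library in these values, so the marks are not independent of each other. Acta1, Myh1, Myh2, Eno3, Neb and Xirp2 were not marked.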

How the results depend on the processing

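None of the 34 tested members changed direction under any alternative in which it was tested. Myh7 was tested only with no filter, and without GrB replicate 1 its mean was 0.0251 CPM in GrB against 0.0450 CPM in IgG. No alternative reversed the median log2 fold change, which ranged from 1.14 without GrB replicate 1 to 3.56 without both U libraries. The count of members at an unadjusted p under 0.05, 25 of 34, was 0 with limma-voom, 0 with limma on log2(CPM + 1), 16 with the U suffix as a covariate, and 3 to 30 when 1 library was left out. It was 3 without GrB replicate 1, 6 without IgG replicate 2, 7 without IgG replicate 3 and 16 without IgG replicate 4, and the cause was not tested. Members called at an adjusted p under 0.05 were 0 with edgeR, 17 with DESeq2 (which gave no p for 5, Tnnt1, Tnni1, Tnnc1, Ckmt2 and Ampd1) and 0 to 18 with 1 library left out (18 without GrB replicate 4). Genes called in all were 0, 4708 with DESeq2 (2251 higher, 11.4% of those tested), 1 with limma-voom, and 0 to 3447 with 1 library left out (1260 without GrB replicate 1). Members whose groups did not overlap were 1 in all, and 1 to 28 with 1 library left out (28 without GrB replicate 4, 3 without IgG replicate 1, 2 without IgG replicate 4). The summed levels differed on the deposited CPM by less than 1 SD of their group.

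The fast to slow ratio depended on its construction. As CPM without division by length it was 58.6, 18.4 and 35.75 in IgG replicates 1, 2 and 4 and 49.25, 54.7 and 68.0 in GrB replicates 1 to 3. In IgG replicate 3 the fast and slow sums were 38.2 and 2.76 CPM, and in GrB replicate 4 they were 34.55 and 3.88 CPM. Per kilobase without Tnnc1 the ratio was 60.1, 19.8, 21.6 and 39.8 in IgG replicates 1 to 4. It was 54.7, 65.5, 65.95 and 15.2 in GrB replicates 1 to 4, so GrB replicate 4 was the lowest of all. With geometric means, chosen after seeing the data, it was 8.42 in GrB replicate 1, below the 19.9 of IgG replicate 1 and the 10.1 of IgG replicate 4. GrB replicate 1 was thus not the highest tumour under any of these 3 constructions. No paired analysis was possible because the replicate numbers were given in accession order and pair nothing. Counts of a few reads, as for Myh7 outside GrB replicate 1, limit what can be said of slow fibre genes.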
